A study of Homo sapiens with 72 samples.

Results

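The libraries described here compare PEO1 cells given rucaparib for 24 h with PEO1 cells given vehicle (DMSO) for the same time, both taken as the whole, unsorted population. They were chosen by their labels alone (gate Un, time 24 h, treatment Ruc or Veh) and make up 18 of the 72 libraries of the series, 9 with rucaparib at 8.5 µM and 9 with vehicle. Each replicate number from 1 to 3 is carried by 3 libraries of a treatment, so reads were summed by number to 3 samples per treatment, which are 6 of 24 summed samples in all. The other libraries hold a 2 h time point and sorted fractions with the highest and lowest 20% of drug fluorescence. PEO1 is an established line from a high-grade serous ovarian carcinoma that is defective in homologous recombination, and all of its cells here share that background. Unsorted cells were scraped straight into lysis buffer, and poly(A) RNA was sequenced in strand-specific libraries. The data are from 1 line at 1 dose, and the cells were not separated by how much drug they held.

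Rucaparib blocks PARP1 and PARP2, which mark DNA strand breaks with poly(ADP-ribose), and holds the enzymes on DNA, where they obstruct replication forks. Cells that cannot repair the resulting breaks by homologous recombination may stop in G2, when the genes needed for mitosis are normally at their peak. CDKN1A, which encodes the CDK inhibitor p21, and GADD45A are classical genes of growth arrest, and chemokines such as CXCL8 are made by many epithelial cells under stress through NF-kB and AP-1. Rucaparib is intrinsically fluorescent, and the study it came from asked where in the cell and in which cells the drug collects.

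At 24 h, 44 of 54 tested genes of G2 and mitosis were lower with rucaparib. Higher were 10 of 15 genes of the integrated stress response, 10 of 22 chemokine and cytokine genes and 13 of 28 p53 targets. The lists were chosen with earlier results of these data known, so such counts describe the lists and do not test them against all genes. CDKN1A and GADD45A of growth arrest and the protease gene MMP1 were among the genes named for the size of their rise. In a fit by edgeR's quasi-likelihood test with the replicate number as a block, 2656 of 20131 genes were higher (13.2%) and 2175 were lower (10.8%) at a Benjamini-Hochberg adjusted p under 0.05. At least 2-fold changes were found for 385 of the higher and 241 of the lower genes. The sign of the change was the same in all 3 replicates for 2612 of the higher and 2134 of the lower genes. Without the block, 442 genes (2.20%) were higher and 232 (1.15%) lower, and on a scale of transcripts per length, log2(TPM + 1), limma called 678 higher and 1287 lower. A gene is called higher or lower below where it passed in the fit with the block, and normalised read counts (CPM, per 1e6 reads) are given for replicates 1, 2 and 3 in that order. In RNA from a whole population, fewer cells that express a gene and less RNA of it per cell cannot be told apart.

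Depth was similar in both treatments, at 31177374 to 38009444 reads per vehicle library (median 33380615) and 30812250 to 38899905 per rucaparib library (median 35365373). The mean length of the transcripts that reads were assigned to, weighted by reads, set some libraries apart. It lay between 3054 and 3252 bases in the 9 vehicle libraries and between 3170 and 3299 bases in the 3 rucaparib libraries of replicate 3. In the 6 rucaparib libraries of replicates 1 and 2 it lay between 2594 and 2953 bases, below every vehicle library. Changes were also larger there: the median change of the genes called higher was 0.66, 0.66 and 0.28 on the log2 scale in replicates 1, 2 and 3, and that of the genes called lower was -0.63, -0.61 and -0.26. A second fit therefore added this length, per summed sample, to the model beside the block (the length covariate below), and called 627 genes (3.11%) higher and 551 (2.74%) lower. Of the genes called in the first fit, 547 of the higher and 489 of the lower were called in the same direction with the covariate. Counts of called genes in a list are followed below by the number of those genes also called with the covariate. Each such count is to be read against the 13.2% higher and 10.8% lower of all genes, which some lists lie near.

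**Figure D1:**
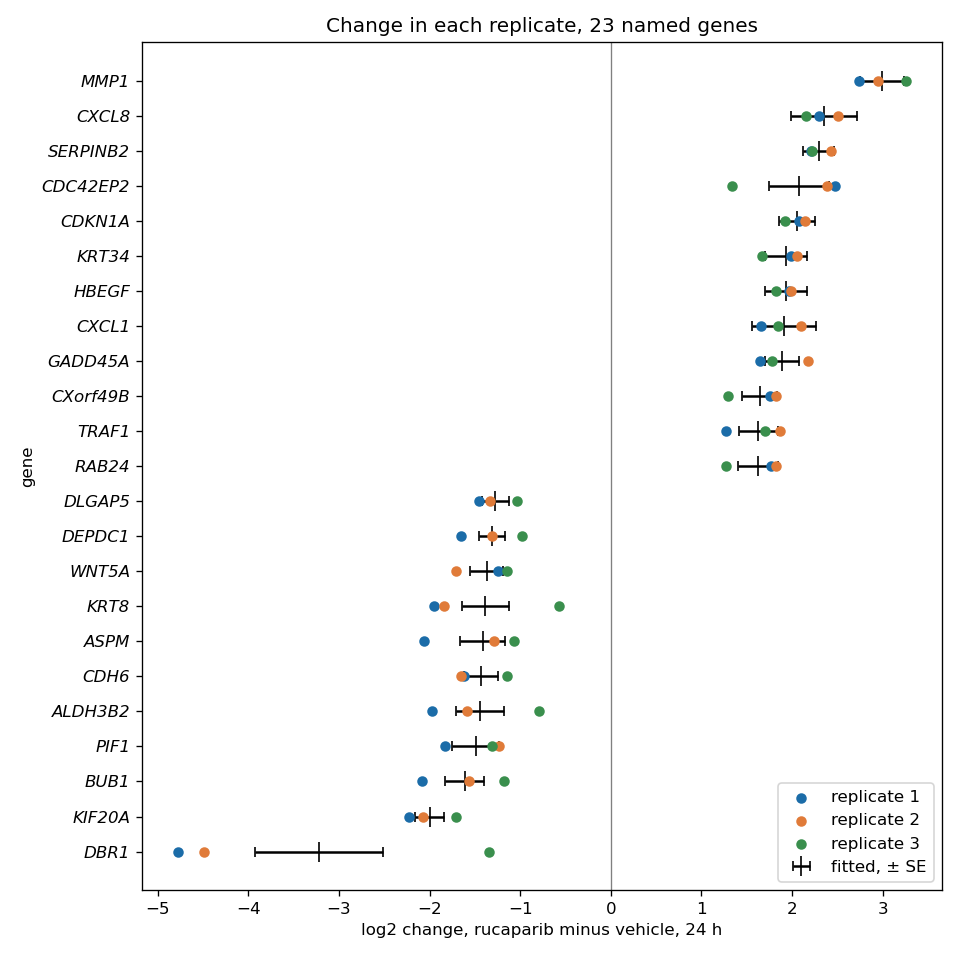
Log2 change between rucaparib and vehicle at 24 h for 12 protein-coding genes that rose and 11 that fell, named by rule for the size of their change. Coloured points are the 3 replicates and black marks the fitted change ± SE. MMP1 leads the genes that rose at 3.00, and DBR1, whose replicates lie between -4.77 and -1.35, leads those that fell.

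CDKN1A, GADD45A and SESN2 rose, with changes from 1.41 to 2.18 in single replicates. CDKN1A (chr6:36676460-36687339 in GRCh38) stood at 7.67, 9.67 and 8.63 CPM in vehicle and at 32.5, 42.6 and 32.8 CPM with rucaparib. All 3 rucaparib samples lay above all 3 vehicle samples, and the log2 change was 2.06 (SE 0.20, edgeR adjusted p = 1.3e-05). GADD45A, whose product binds p21 and PCNA, went from 199.0, 151.0 and 110.1 CPM to 621.6, 684.8 and 376.8 CPM, a change of 1.89 (SE 0.19, edgeR adjusted p = 1.4e-05). SESN2, which encodes the leucine sensor and mTORC1 inhibitor sestrin 2, went from 13.1, 12.3 and 12.4 CPM to 36.4, 34.2 and 33.1 CPM. Its change of 1.45 (SE 0.17, edgeR adjusted p = 7.0e-05) was nearly equal in the 3 replicates, at 1.47, 1.47 and 1.41.

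Of 28 p53 targets tested, 13 were called higher, 2 lower and 13 did not pass, against 13.2% higher and 10.8% lower of all genes. With the length covariate, 6 of the 13 and 1 of the 2 were still called. The median change of the list was 0.36, against 0.02 over all genes. BBC3, which encodes the pro-apoptotic BH3-only protein PUMA, rose by 1.02 (SE 0.22, edgeR adjusted p = 0.0043), and its adjusted p with the covariate was 0.089. In contrast, CCNG1, a p53 target that encodes cyclin G1, fell from 57.9, 62.3 and 62.4 CPM to 42.3, 49.65 and 48.95 CPM, a change of -0.38 (edgeR adjusted p = 0.0064). MDM2, the p53 ubiquitin ligase and a standard target, had a change of -0.20 (edgeR adjusted p = 0.063) and was picked after its value was seen. Among 8 CDK inhibitor and GADD45 genes, CDKN1A and GADD45A were higher and CDKN2C, which encodes p18, was lower at -0.66 (SE 0.20, edgeR adjusted p = 0.023). All 3 were also called with the covariate, and the other 5 did not pass. The median change of these 8 genes was 0.525, 0.50 and 0.02 in replicates 1, 2 and 3.

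Genes of G2 and mitosis fell as a group. Of 54 tested, 44 were lower, none was higher and 10 did not pass in edgeR, and 30 of the 44 were also called with the length covariate and 16 without the block. None was higher at an unadjusted p under 0.05 either, and DESeq2 called 44 lower and 0 higher. The median change of the list was -0.70, and it was -0.94, -0.63 and -0.48 in replicates 1, 2 and 3. Replicate 3, in which the libraries of both treatments had similar transcript lengths, had 52 of 54 genes below 0. In 46 genes all rucaparib samples lay below all vehicle samples and in 1 gene all lay above, where 24.7% of all genes did not overlap in one direction or the other.

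KIF20A, which encodes a mitotic kinesin of cytokinesis (chr5:138178719-138187715), changed most among them. It stood at 106.5, 124.8 and 163.9 CPM in vehicle and at 22.8, 29.6 and 50.2 CPM with rucaparib, a change of -2.0 (SE 0.16, edgeR adjusted p = 1.7e-06). BUB1, a kinase of the spindle checkpoint, went from 80.6, 85.1 and 106.1 CPM to 19.1, 28.7 and 46.8 CPM, a change of -1.62 (SE 0.21, edgeR adjusted p = 1.6e-04). Both genes had their highest level of either treatment in replicate 3, and their groups did not overlap. The spindle pole gene ASPM fell by 1.42 on the log2 scale and the spindle gene DLGAP5 by 1.28, with replicates between -2.06 and -1.06 and between -1.45 and -1.04. Outside the list, DEPDC1, which is highly expressed in mitotic cells, fell by 1.31 (SE 0.14, edgeR adjusted p = 4.3e-05). PIF1, a DNA helicase gene, went from 16.99, 12.6 and 10.5 CPM to 4.75, 5.34 and 4.21 CPM, a change of -1.49 (SE 0.26, edgeR adjusted p = 0.0011).

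Among cyclin and kinase genes of mitotic entry, some were lower and some did not pass. CCNB1, which encodes cyclin B1, the activator of CDK1, stood at 344.6, 340.8 and 369.5 CPM in vehicle and at 189.8, 222.3 and 218.5 CPM with rucaparib, a change of -0.75 (SE 0.13, edgeR adjusted p = 9.2e-04). CCNB2 changed by -0.97, the mitotic kinase gene AURKA by -0.87 and its activator TPX2 by -0.39, with edgeR adjusted p = 7.7e-04, 0.0020 and 0.020. Among the 10 members that did not pass, picked here after their values were seen, CDK1 itself had a change of -0.22 (edgeR adjusted p = 0.30), AURKB of 0.21 and the checkpoint gene MAD2L1 of 0.05. WEE1, the kinase that holds CDK1 inactive in G2, was lower, at 14.8, 15.5 and 15.5 CPM in vehicle and 9.81, 9.84 and 7.42 CPM with rucaparib (change -0.77, SE 0.15, edgeR adjusted p = 0.0023).

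**Figure D2:**
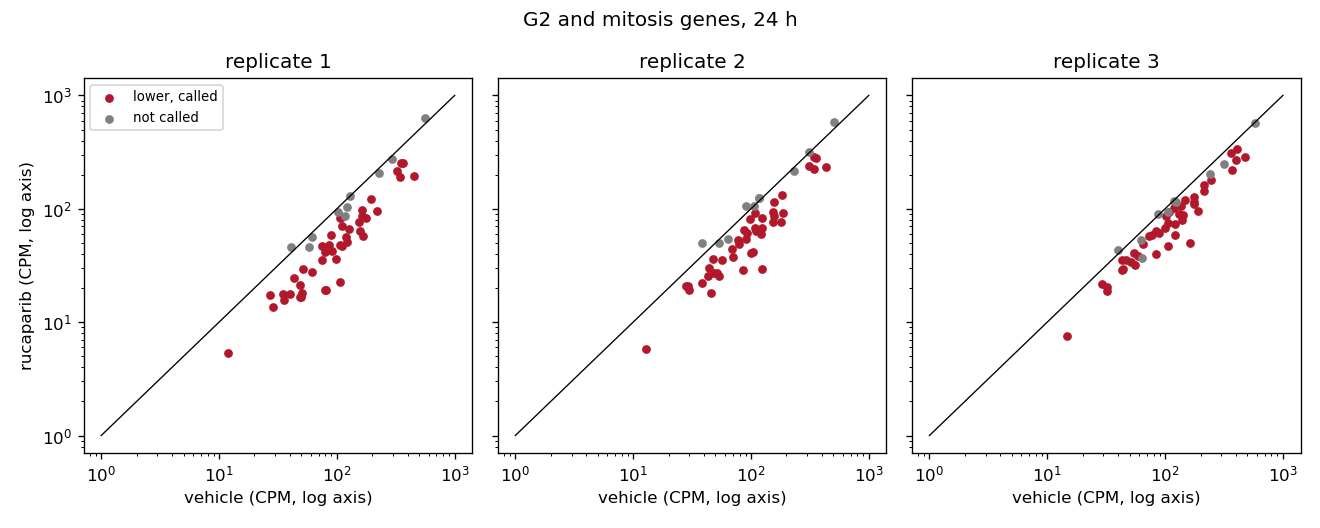
CPM with rucaparib against CPM in vehicle for the 54 G2 and mitosis genes in each of the 3 replicates, on log axes, coloured by whether the gene was called lower. The line marks equal values, and 52, 48 and 52 of the genes lie below it in replicates 1, 2 and 3 by log2 change.

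Promoters of G2 and mitosis genes often hold CCAAT boxes, read by the factor NF-Y, and the element CHR, through which the DREAM complex silences them in quiescent or arrested cells. RefSeq promoters (GRCh38.p14), of which the 250 bases before the start were searched on both strands, were found for 44 of the 54 genes. The CHR core TTTGAA was present in 22 of the 44 and in 13.3% of all 35116 promoters, and CCAAT was present in 34 of the 44 and in 32% of all promoters. Of the 37 genes with a promoter that were called lower, 21 held TTTGAA and 29 held CCAAT. The promoter of KIF20A, the member with the largest change, is shown because it holds CCAAT at 2 places on the reverse strand, which the capitals mark 94 to 90 and 67 to 63 bases before the start. It lies at chr5:138178862-138179111 on the plus strand, inside the span that GENCODE gives the gene.
KIF20A: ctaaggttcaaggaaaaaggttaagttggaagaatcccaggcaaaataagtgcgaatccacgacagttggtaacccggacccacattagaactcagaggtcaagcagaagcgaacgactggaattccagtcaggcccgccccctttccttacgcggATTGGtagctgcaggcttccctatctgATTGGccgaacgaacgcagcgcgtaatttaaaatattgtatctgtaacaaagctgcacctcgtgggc
Presence of a motif is a description of these letters and not of binding.

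Genes of DNA replication were called in both directions. Of 49 S phase genes, 10 were higher, 5 lower and 34 did not pass in edgeR, against 13.2% higher and 10.8% lower of all genes. None of the 15 was called with the length covariate (2 higher and 3 lower at an unadjusted p under 0.05). The groups did not overlap in 16.3% of these genes and in 24.7% of all genes. FEN1, the flap endonuclease of Okazaki fragment processing, stood at 205.3, 184.6 and 170.7 CPM in vehicle and 413.6, 353.9 and 212.2 CPM with rucaparib (change 0.77, edgeR adjusted p = 0.0058, and 0.081 with the covariate). E2F1, the activator of S phase genes, had changes of 0.75, 0.67 and -0.01 in replicates 1, 2 and 3 and was called higher at 0.49 (edgeR adjusted p = 0.027). CCNE2, which encodes the G1/S cyclin E2, was lower at -0.65 (edgeR adjusted p = 0.0051). The E2F motif TTTGGCGC was present in 6 of 42 S phase promoters, 2 of them among the 13 called genes with a promoter, and in 0.55% of all promoters.

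The DNA repair lists are read against 13.2% higher and 10.8% lower of all genes. Of 40 genes of homologous recombination, the Fanconi pathway and the checkpoint, 3 were higher and 4 lower in edgeR, with 1 each also called with the length covariate. Those 2 were XRCC3, a gene of strand exchange (change 0.52, SE 0.09, edgeR adjusted p = 0.0015), and WEE1, described with the mitotic genes. On the log2(TPM + 1) scale XRCC3 lay on the other side of 0, at -0.051. End joining and shieldin genes gave 2 higher and 2 lower of 19, and none of the 4 was called with the covariate. Among 21 genes of base excision and single-strand break repair, the step that PARP1 serves, 7 were higher and 1 lower. The lower gene was TDP1, which clears topoisomerase adducts, at 14.9, 15.7 and 16.8 CPM in vehicle and 9.75, 10.6 and 12.6 CPM with rucaparib. Its change of -0.54 (SE 0.10, edgeR adjusted p = 0.0021) was also called with the covariate, and none of the 7 higher genes was.

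The drug's targets did not pass. PARP1 stood at 69.6, 65.1 and 85.0 CPM in vehicle and at 6.09, 23.2 and 68.2 CPM with rucaparib, a change of -1.63 whose SE of 0.77 was large (edgeR adjusted p = 0.13). It passed under 2 of 15 other settings, without a filter on low counts and with unsummed libraries (edgeR adjusted p = 0.039 and 0.037). PARP2 had a change of -0.16 (SE 0.14, edgeR adjusted p = 0.42). Of 20 genes of the PARP family and of ADP-ribose removal, 5 were higher and 4 lower, and 4 of the higher and none of the lower were also called with the length covariate. Among the higher ones were 3 that encode enzymes which take ADP-ribose off proteins or DNA. MACROD1, a mitochondrial ADP-ribosyl hydrolase, went from 5.38, 5.31 and 5.49 CPM to 13.02, 15.4 and 7.52 CPM (change 1.10, SE 0.21, edgeR adjusted p = 0.0020). ADPRS, the hydrolase of serine-linked ADP-ribose, rose by 0.76 (SE 0.11, edgeR adjusted p = 3.6e-04), and OARD1 rose by 0.58 (SE 0.12, edgeR adjusted p = 0.0026). TIPARP, a mono-ADP-ribosyl transferase and AHR target, was lower at -0.61 (edgeR adjusted p = 0.042, and 0.63 with the covariate).

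The integrated stress response, in which phosphorylation of eIF2 favours translation of ATF4 and ATF4 then induces genes of amino acid supply, had the highest median of the 44 lists in the fit with the block. With the length covariate, and in replicate 1, chemokines and cytokines had a higher median (0.70 against 0.69, and 0.73 against 0.60). Of 15 genes, 10 were higher, none was lower and 5 did not pass in edgeR, and 9 of the 10 were also called with the length covariate and 5 without the block. At an unadjusted p under 0.05 it was 12 higher and 0 lower, as in DESeq2. The median change was 0.89, with 0.60, 0.89 and 0.86 in replicates 1, 2 and 3, so replicate 3 lay between the others. CHAC1, which degrades glutathione, went from 6.91, 12.8 and 8.99 CPM to 23.1, 33.8 and 25.3 CPM (change 1.53, SE 0.19, edgeR adjusted p = 1.2e-04). PPP1R15A, which encodes the eIF2 phosphatase subunit GADD34, stood at 121.0, 62.5 and 60.9 CPM in vehicle and 286.5, 206.9 and 146.1 CPM with rucaparib (change 1.43, SE 0.25, edgeR adjusted p = 0.0011). TRIB3, a pseudokinase that dampens ATF4 signalling, rose by 1.12 (SE 0.18, edgeR adjusted p = 6.7e-04). SESN2, given with the growth arrest genes, is on this list too.

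ATF4 itself, whose control is mainly in translation, had a change of -0.09 and did not pass (picked after its value was seen). Of 18 genes of serine synthesis, one-carbon metabolism and amino acid transport, 9 were higher and 2 lower, and 4 of the higher and none of the lower were called with the covariate. The median change of that list was 0.39. SHMT2 and MTHFD2 of mitochondrial one-carbon metabolism rose by 0.53 and 0.51, and SLC7A5, a subunit of the leucine transporter, fell by 0.51 on the log2 scale (edgeR adjusted p = 0.0012, 0.0042 and 0.013). The ER branch of the unfolded protein response was mixed, at 4 higher and 3 lower of 18. XBP1, the factor spliced by IRE1, was the single member also called with the covariate, at 63.9, 74.4 and 58.1 CPM in vehicle and 122.0, 137.9 and 93.6 CPM with rucaparib (change 0.84, edgeR adjusted p = 7.2e-04). The composite motif TGATGNAA of ATF4 and C/EBP was present in 3 of 14 promoters of the integrated stress response list and in 3.14% of all promoters, and all 3 genes were called higher.

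Of 22 chemokine and cytokine genes tested, 10 were higher, 1 was lower and 11 did not pass in edgeR, and 6 of the 10 were also called with the length covariate. On average 9 of the 22 were under 1 CPM in both treatments. The median change was 0.69, with 0.73, 0.63 and 0.65 in the 3 replicates. CXCL8, which encodes interleukin-8 (chr4:73740506-73743716), went from 15.1, 17.8 and 13.03 CPM to 74.0, 101.4 and 57.9 CPM, a change of 2.35 (SE 0.37, edgeR adjusted p = 5.5e-04). CXCL1, another ligand of the receptor CXCR2, went from 15.6, 15.8 and 12.2 CPM to 49.4, 67.8 and 44.1 CPM (change 1.91, SE 0.35, edgeR adjusted p = 0.0016). In both genes every rucaparib sample lay well above every vehicle sample, and replicate 2 was the highest.

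At low levels, CSF2, which encodes GM-CSF, rose from 0.052, 0.041 and 0.065 CPM to 0.47, 0.98 and 0.41 CPM (change 3.54, SE 0.49, edgeR adjusted p = 2.5e-04). CCL20, the ligand of CCR6, rose from 0.031, 0.14 and 0.13 CPM to 0.34, 0.88 and 0.62 CPM (change 2.60, SE 0.41, edgeR adjusted p = 6.5e-04). Both stayed under 1 CPM in every sample, so their changes rest on few reads. The exception in direction was TGFB2, a ligand of the TGF-beta family, at 11.2, 13.02 and 11.2 CPM in vehicle and 4.13, 6.05 and 9.68 CPM with rucaparib (change -0.88, edgeR adjusted p = 0.017, and 0.29 with the covariate).

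Of 18 NF-kB factors and their feedback genes, 8 were higher, none was lower and 10 did not pass, and 5 of the 8 were called with the covariate. At an unadjusted p under 0.05, 9 were higher and 1 lower, and DESeq2 called 8 higher and 1 lower. TRAF1, an adaptor of TNF receptors, went from 6.86, 5.65 and 4.92 CPM to 16.6, 20.8 and 16.04 CPM (change 1.63, SE 0.22, edgeR adjusted p = 1.8e-04). TNFAIP3, which encodes the feedback inhibitor A20, went from 169.0, 141.5 and 135.8 CPM to 377.1, 328.4 and 363.4 CPM (change 1.26, SE 0.20, edgeR adjusted p = 6.9e-04). RELB, a subunit of the non-canonical pathway, rose by 1.12 and NFKBIB, an inhibitor of the IkB family, by 1.09 (edgeR adjusted p = 1.0e-04 and 6.0e-04). NFKBIA, the immediate feedback inhibitor, had a change of 0.33 and did not pass (picked after its value was seen).

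The kB motif (GGG, any 2 bases, TTTCC) was found in 6 of 16 chemokine and cytokine promoters, in 5 of the 9 whose genes were called, and in 1.73% of all promoters. Among NF-kB factors it was found in 6 of 16 promoters, of which 1 belonged to the 6 called genes with a promoter. The CCL20 promoter (chr2:227813592-227813841, plus strand, GRCh38.p14) is printed as the chemokine promoter with that motif whose gene changed most. It also lies inside the span that GENCODE gives the gene. Capitals mark the motif, on the reverse strand, 79 to 70 bases before the start.
CCL20: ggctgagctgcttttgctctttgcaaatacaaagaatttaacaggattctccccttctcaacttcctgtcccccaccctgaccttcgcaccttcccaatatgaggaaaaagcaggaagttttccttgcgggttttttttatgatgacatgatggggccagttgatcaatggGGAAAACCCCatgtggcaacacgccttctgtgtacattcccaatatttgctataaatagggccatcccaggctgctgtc

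A secreted protease and a protease inhibitor were among the genes named for the size of their rise. MMP1, which encodes interstitial collagenase (chr11:102789920-102798160), went from 1.03, 1.06 and 0.84 CPM to 6.99, 8.27 and 8.16 CPM. That is a change of 3.00 (SE 0.24, edgeR adjusted p = 1.7e-06), and it was 2.74, 2.95 and 3.25 in the 3 replicates. SERPINB2, which encodes plasminogen activator inhibitor 2 (chr18:63871692-63903890), went from 13.6, 15.1 and 11.7 CPM to 62.8, 81.7 and 54.8 CPM (change 2.30, SE 0.17, edgeR adjusted p = 1.7e-06). With the length covariate the changes were 3.08 and 2.29, and all rucaparib samples lay above all vehicle samples.

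MMP10, or stromelysin 2, was under 1 CPM in vehicle, at 0.21, 0.35 and 0.20 CPM, and reached 1.02, 1.39 and 1.48 CPM with rucaparib (change 2.35, SE 0.33, edgeR adjusted p = 3.0e-04). PLAUR, the urokinase receptor gene, rose by 1.10 (SE 0.18, edgeR adjusted p = 7.7e-04). Over the list of 20 plasminogen activator and metalloproteinase genes, 7 were higher, 2 lower and 11 did not pass, with 5 and 1 also called with the covariate. The 2 lower genes were the metalloproteinase inhibitors TIMP3, at -0.47, and TIMP2, at -0.26 (edgeR adjusted p = 0.0053 and 0.027), whose groups overlapped.

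AP-1, the factor of FOS and JUN proteins that is known to drive MMP promoters, reads TGANTCA. That motif was present in 6 of 12 promoters of this list, in 3 of the 6 whose genes were called, and in 6.57% of all promoters. It was in none of 19 promoters of immediate-early genes. The promoters of MMP10 (chr11:102780629-102780878, minus strand) and SERPINB2 (chr18:63887455-63887704, plus strand, inside the span that GENCODE gives the gene) are shown as the 2 members with the motif that changed most. Capitals mark it 67 to 61 bases before the start of MMP10 and 102 to 96 bases before that of SERPINB2.
MMP10: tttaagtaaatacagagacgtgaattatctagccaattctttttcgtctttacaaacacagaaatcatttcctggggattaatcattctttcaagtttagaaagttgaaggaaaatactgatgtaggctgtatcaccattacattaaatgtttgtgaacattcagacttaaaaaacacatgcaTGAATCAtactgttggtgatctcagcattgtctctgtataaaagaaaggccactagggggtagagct
SERPINB2: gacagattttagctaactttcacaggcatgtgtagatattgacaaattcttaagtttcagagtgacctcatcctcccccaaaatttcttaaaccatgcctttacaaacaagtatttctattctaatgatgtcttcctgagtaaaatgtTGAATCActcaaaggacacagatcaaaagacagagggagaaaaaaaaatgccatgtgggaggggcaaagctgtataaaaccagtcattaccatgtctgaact

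Of 16 genes of the EGF receptor family, its ligands and its regulators, 6 were higher, 2 lower and 8 did not pass in edgeR, and all 6 and 1 of the 2 were also called with the covariate. The median change of the list was 0.006, with 9 genes above 0 and 7 below. The 6 were the EGF receptor ligand genes HBEGF, AREG, EREG and TGFA, the neuregulin gene NRG2 and the inhibitor gene ERRFI1. HBEGF, which encodes the heparin-binding ligand (chr5:140332843-140346631), went from 48.4, 54.4 and 48.4 CPM to 189.6, 216.1 and 171.4 CPM (change 1.93, SE 0.23, edgeR adjusted p = 9.3e-05). AREG, or amphiregulin, went from 21.4, 23.6 and 18.2 CPM to 51.8, 52.1 and 33.5 CPM (change 1.10, SE 0.18, edgeR adjusted p = 8.5e-04), and EREG, or epiregulin, rose by 1.23 (SE 0.19, edgeR adjusted p = 5.7e-04). ERRFI1, which encodes a feedback inhibitor of the receptor, rose by 0.82 (edgeR adjusted p = 0.027).

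The 2 lower genes encode receptors, and the other 2 receptor genes, ERBB2 and ERBB4, did not pass. ERBB3 stood at 84.6, 97.7 and 66.7 CPM in vehicle and 44.4, 68.7 and 33.3 CPM with rucaparib, lower in each replicate although the groups overlapped (change -0.82, SE 0.16, edgeR adjusted p = 0.0020). EGFR had changes of -0.83, -0.75 and -0.05 in replicates 1, 2 and 3, and its call (-0.52, edgeR adjusted p = 0.041) was lost with the covariate (edgeR adjusted p = 0.71).

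Feedback genes of MAP kinase signalling gave 7 higher and none lower of 19 (8 and 1 in DESeq2, 9 and 1 at an unadjusted p under 0.05), with 2 also called with the covariate. PHLDA1 rose by 1.05 and the ERK phosphatase gene DUSP6 by 0.97 (edgeR adjusted p = 0.0078 and 0.025). Immediate-early genes gave 9 higher and none lower of 24 (11 and 0 in DESeq2 and at an unadjusted p under 0.05), with 3 also called. KLF6 went from 103.1, 126.1 and 118.1 CPM to 237.9, 299.8 and 227.0 CPM (change 1.13, SE 0.22, edgeR adjusted p = 0.0023), and the stress factor gene ATF3 rose by 1.11 (SE 0.35, edgeR adjusted p = 0.028). The classical serum-induced gene FOS had a change of 0.03 and EGR1 of 0.24, and neither passed (both picked after their values were seen).

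Some genes of apoptosis were called, against 13.2% higher and 10.8% lower of all genes. The median change was 0.09 for BCL2 family genes and -0.07 for death receptor, ligand and caspase genes. Of 16 BCL2 family genes, 6 were higher and none lower in edgeR (7 and 4 in DESeq2, 8 and 4 at an unadjusted p under 0.05), and 1 was also called with the covariate. That gene was BCL2A1, an anti-apoptotic NF-kB target, at 1.62, 1.27 and 1.02 CPM in vehicle and 4.72, 5.02 and 2.71 CPM with rucaparib (change 1.68, SE 0.30, edgeR adjusted p = 0.0013). BIK and BAD, which encode pro-apoptotic members, rose by 0.78 and 0.61 (edgeR adjusted p = 0.0040 and 0.021). Death receptor, ligand and caspase genes gave 5 higher and 3 lower of 19, and 3 of the higher were also called with the covariate. The TRAIL receptor gene TNFRSF10A rose by 0.58 and CFLAR, which encodes the caspase-8 inhibitor FLIP, by 0.42 (edgeR adjusted p = 8.4e-04 and 0.0026). TNFSF10, the gene of the ligand TRAIL, was lower at -0.80 (SE 0.21, edgeR adjusted p = 0.013).

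Epithelial, adhesion and matrix genes changed in both directions. LAMB3, which encodes a chain of the basement membrane protein laminin-332, went from 229.6, 167.9 and 179.8 CPM to 673.7, 498.8 and 425.3 CPM (change 1.46, SE 0.12, edgeR adjusted p = 1.7e-06). The keratin gene KRT34 went from 2.63, 1.76 and 1.31 CPM to 10.5, 7.37 and 4.22 CPM (change 1.94, SE 0.24, edgeR adjusted p = 1.0e-04). KRT8, a keratin of simple epithelia with many processed copies in the genome, stood at 2026, 3250 and 4203 CPM in vehicle and at 522.6, 909.9 and 2824 CPM with rucaparib, so the groups overlapped. Its change of -1.38 (SE 0.26, edgeR adjusted p = 0.0019) was -1.96, -1.84 and -0.57 in the replicates, and its adjusted p without the block was 0.21.

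CDH6, which encodes cadherin 6, went from 29.5, 38.3 and 56.4 CPM to 9.60, 12.2 and 25.5 CPM (change -1.43, SE 0.19, edgeR adjusted p = 1.5e-04). WNT5A, a non-canonical WNT ligand gene, went from 4.05, 7.83 and 6.38 CPM to 1.70, 2.38 and 2.86 CPM (change -1.37, SE 0.18, edgeR adjusted p = 1.6e-04).

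Among 22 matrix genes 7 were higher and 5 lower, with 3 and 2 also called with the covariate. The lower genes included FN1, or fibronectin, at -0.47 (edgeR adjusted p = 0.022, and 0.41 with the covariate), which lay on the other side of 0 with an offset for effective transcript length, at 0.14. The list of EMT factors and cadherins split into 4 higher and 4 lower of 17, of which 2 and 1 were also called with the covariate. That of YAP/TEAD targets split into 2 higher and 6 lower of 17, of which 2 and 1 were also called.

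The other genes named for the size of their change belong to no list. CDC42EP2, a CDC42 effector gene, went from 3.81, 4.80 and 3.59 CPM to 21.3, 25.1 and 9.07 CPM (change 2.08, SE 0.34, edgeR adjusted p = 7.1e-04). RAB24, a RAB GTPase gene linked to autophagy, went from 17.3, 15.9 and 12.1 CPM to 59.02, 56.5 and 29.2 CPM (change 1.63, SE 0.22, edgeR adjusted p = 1.9e-04). In both, replicate 3 changed least. CXorf49B rose by 1.64 (SE 0.19, edgeR adjusted p = 7.0e-05), and its reads cannot be separated with certainty from those of its near-identical copy CXorf49. ALDH3B2, an aldehyde dehydrogenase gene, was lower at -1.44 (SE 0.27, edgeR adjusted p = 0.0016).

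**Figure D3:**
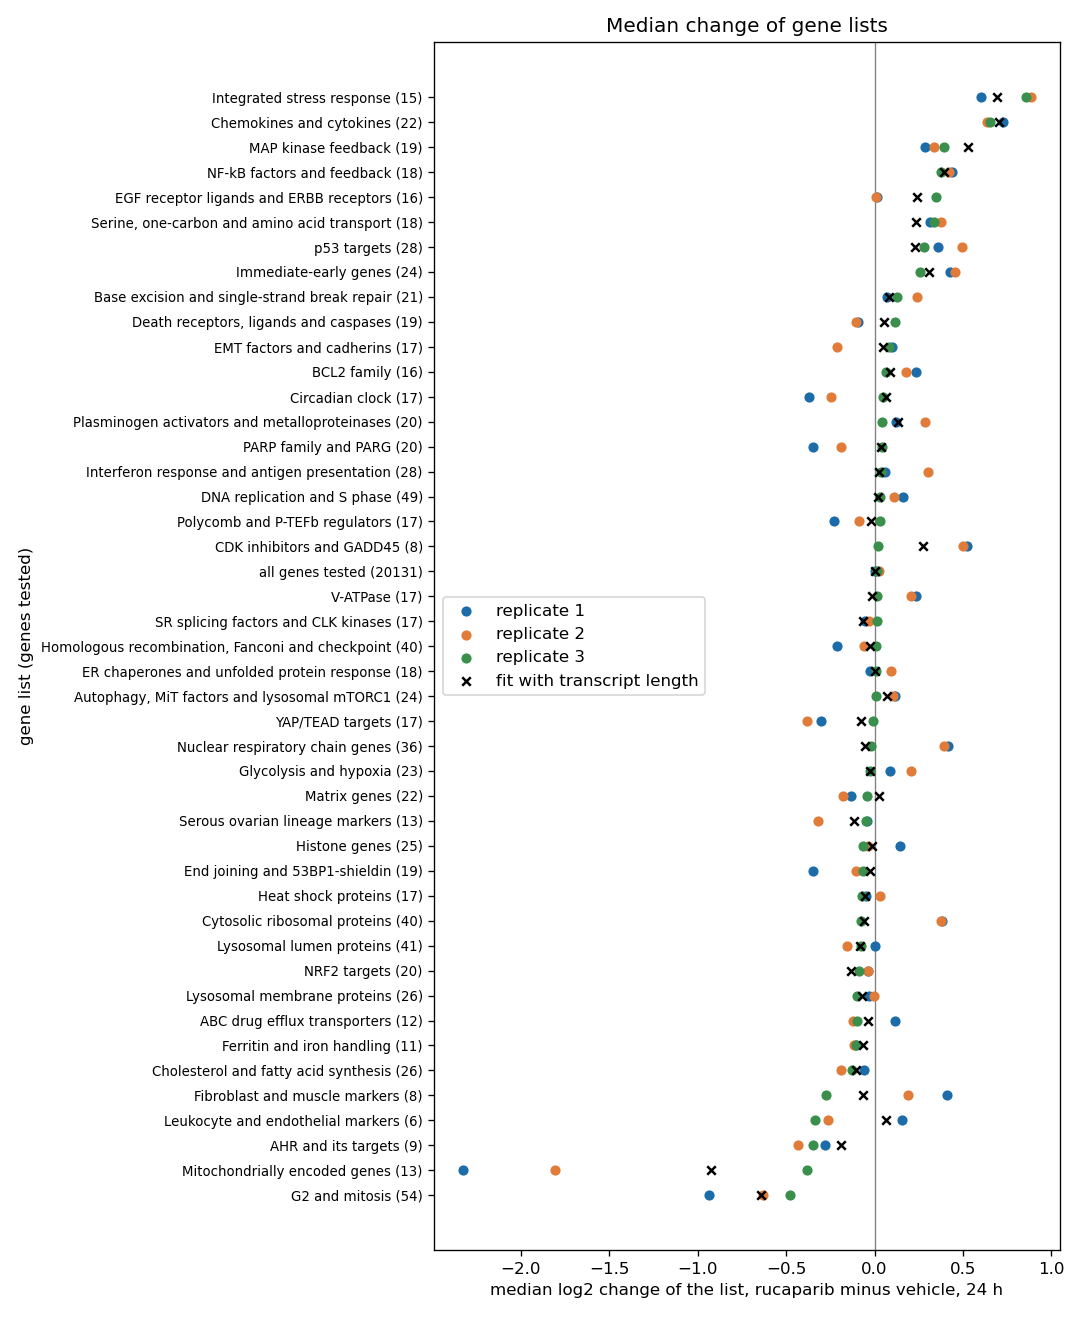
Median log2 change of gene lists at 24 h in replicates 1, 2 and 3 (coloured points) and in the fit with transcript length (crosses), with the number of genes tested. The G2 and mitosis median lies between -0.94 and -0.48 and that of the integrated stress response between 0.60 and 0.89 in all replicates, whereas ribosomal and respiratory chain medians are above 0 in replicates 1 and 2 and below 0 in replicate 3.

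Several lists moved mainly in replicates 1 and 2, where the rucaparib libraries were short, and their calls were lost with the length covariate. The 13 mitochondrially encoded genes, which are not nuclear and have short poly(A) tails, gave 11 lower and none higher in edgeR and in DESeq2, and 0 with the covariate (6 lower at an unadjusted p under 0.05). Their median changes were -2.33, -1.81 and -0.38 in replicates 1, 2 and 3. MT-ATP6, a subunit of ATP synthase, stood at 1374, 774.5 and 525.7 CPM in vehicle and 172.0, 169.3 and 346.3 CPM with rucaparib (change -2.05, SE 0.49, edgeR adjusted p = 0.0081, and 0.16 with the covariate). As a share of reads, mitochondrially encoded genes took 1.18 to 1.78%, 0.93 to 1.09% and 0.60 to 0.80% in the vehicle libraries of replicates 1, 2 and 3, so the vehicle libraries differed by replicate as well. With rucaparib they took 0.33 to 0.49%, 0.23 to 0.49% and 0.37 to 0.74%. At 2 h the median change of the list was on the other side of 0, at 0.90, and the lowest edgeR adjusted p of a member was 0.33, so none was called. Library length was also distributed otherwise at 2 h. Of the 3 libraries of each replicate, those of at least 2800 bases were 1, 1 and 3 in vehicle and 2, 2 and 2 with rucaparib at 2 h, against 3, 3 and 3 in vehicle and 1, 1 and 3 with rucaparib at 24 h.

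**Figure D4:**
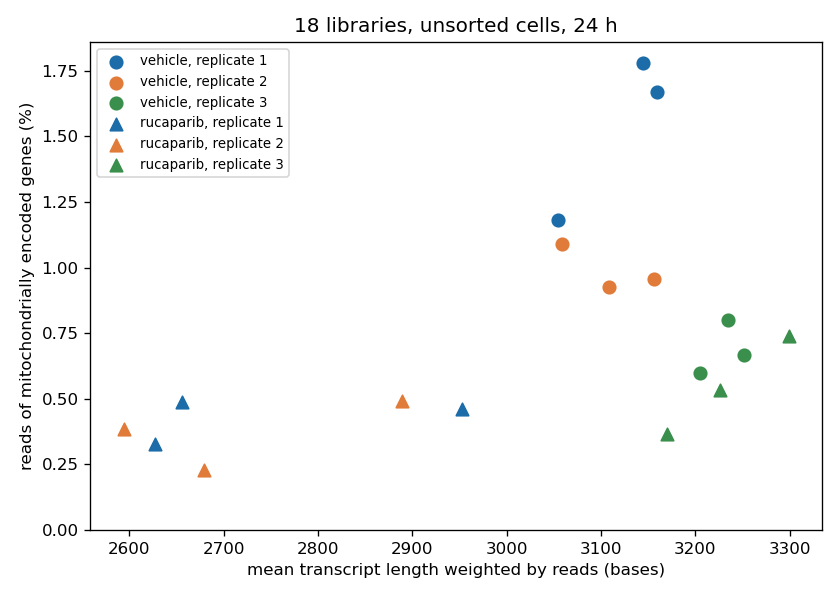
Share of reads on mitochondrially encoded genes (%) against mean transcript length (bases) for the 18 libraries, with colour for the replicate and marker shape for the treatment. The 6 rucaparib libraries of replicates 1 and 2 lie between 2594 and 2953 bases and between 0.229 and 0.493%, and the 3 of replicate 3 lie among the vehicle libraries in length.

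Cytosolic ribosomal protein genes gave 5 higher and none lower of 40 (12 and 2 in DESeq2, 19 and 2 at an unadjusted p under 0.05), with medians of 0.38, 0.38 and -0.08 in the 3 replicates. Nuclear respiratory chain genes gave 10 higher and 1 lower of 36, with medians of 0.41, 0.40 and -0.02. With the covariate none of these calls remained, and the medians were -0.06 and -0.05. Across 20131 genes, which are not independent replicates, Spearman's rho between the change and the gene's effective length was -0.17, -0.23 and -0.03 in replicates 1, 2 and 3. In the fit it was -0.19, and with the covariate -0.002. Between replicates the changes correlated across genes with Pearson's r of 0.54 for 1 and 2, 0.18 for 1 and 3 and 0.23 for 2 and 3. Because treatment and short libraries coincide in replicates 1 and 2, their parts in these changes cannot be told apart there.

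Lysosomal genes, of interest because the drug collects in lysosomes, were called in both directions, against 13.2% higher and 10.8% lower of all genes. Of 41 genes of the lysosomal lumen, 7 were higher and 8 lower in edgeR, with 2 of each also called with the covariate. The median change was -0.03 for the lumen list and -0.02 for the list of lysosomal membrane genes. IDUA, or iduronidase, rose by 1.24 (edgeR adjusted p = 0.0014), and IDS, the sulfatase of the same pathway, was lower at -0.65 (edgeR adjusted p = 0.0012). Of 26 lysosomal membrane genes 4 were higher and 7 lower, and 1 of each was also called. LAMP2 stood at 112.0, 130.5 and 135.7 CPM in vehicle and 71.7, 84.8 and 120.4 CPM with rucaparib, with overlapping groups (change -0.48, edgeR adjusted p = 0.0046, and 0.089 with the covariate). SCARB2, the receptor that carries glucocerebrosidase to lysosomes, was lower at -0.43 (edgeR adjusted p = 0.0046, and 0.087 with the covariate). LAMP1 (-0.17), CTSL (0.36), APP (0.07), ATP6V1F (-0.06) and TFEB (0.16), the master regulator of lysosomal genes, did not pass. LAMP1 passed under 5 of 15 other settings, DESeq2 among them (DESeq2 adjusted p = 0.014), and the other 4 genes under none of them. Of 17 V-ATPase genes 3 were higher and none lower, with 1 also called with the covariate. Of 24 genes of autophagy and lysosomal mTORC1 5 were higher and 1 lower, and 1 of the higher was also called.

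Cholesterol and fatty acid synthesis gave 3 higher and 8 lower of 26, against 13.2% and 10.8% of all genes, and 1 of the 8 was also called with the covariate. Targets of the aryl hydrocarbon receptor gave none higher and 3 lower of 9 (0 and 5 in DESeq2 and at an unadjusted p under 0.05). In replicates 1, 2 and 3, 6, 6 and 9 of them were below 0, where 9503 of all 20131 genes were below 0 in replicate 3. None of the 3 lower genes was also called with the covariate. CYP1B1, a standard target, stood at 18.3, 21.5 and 22.7 CPM in vehicle and 12.4, 14.9 and 12.6 CPM with rucaparib (change -0.66, SE 0.15, edgeR adjusted p = 0.0051, and 0.076 with the covariate).

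Interferon response and antigen presentation gave 6 higher and 2 lower of 28, and 3 of the higher were also called with the covariate. Heat shock proteins gave 2 higher and none lower of 17 and NRF2 targets none higher and 1 lower of 20, and these 3 genes were not called with the covariate. HLA-B, a class I antigen gene of the interferon list, rose by 0.66 and was also called with the covariate (edgeR adjusted p = 0.0017 and 0.017). Efflux transporters gave 2 higher and 3 lower of 12, and 2 of each were also called with the covariate. Among these, ABCC3 rose by 0.51 and ABCC4 was lower at -0.84. Glycolysis and hypoxia (2 higher and 1 lower of 23), histone genes (1 and 0 of 25), circadian clock genes (0 and 1 of 17), splicing factors and CLK kinases (2 and 1 of 17), iron handling (1 and 3 of 11) and Polycomb and P-TEFb regulators (2 and 3 of 17) complete the lists. Also called with the covariate were 1 higher splicing gene, 2 lower genes of iron handling and 1 lower Polycomb or P-TEFb regulator, and no other gene of these 6 lists.

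Markers of the line were present in both treatments. The 14 serous lineage markers, among them PAX8, KRT7, KRT8 and WT1, summed to 12724 to 15758 CPM in the vehicle libraries and to 13019 to 15145 CPM with rucaparib. Keratins made up much of these sums, with KRT7 alone at 5846 to 6710 CPM in vehicle and 5592 to 8416 CPM with rucaparib. The sums therefore say little about the other markers. SOX17 was at 0 in all, FOLR1 was under 1 CPM on average in both treatments, and MECOM was so with rucaparib. Of the 13 tested, 4 were higher and 3 lower, with 1 of each also called with the covariate. The 12 leukocyte and endothelial markers summed to 38.1 to 48.5 CPM in vehicle and 33.5 to 48.8 CPM with rucaparib, with 8 under 1 CPM on average in both and MS4A1 at 0. Fibroblast and muscle markers summed to 153 to 238 CPM and to 115 to 197 CPM, with COL3A1 and LUM at 0. Of 6 and 8 of these markers tested, ITGAM (0.93) and ACTA2 (1.54) were higher and THY1 (-0.41) lower, all 3 also with the covariate.

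In some genes the libraries of 1 replicate differed from each other more than is usual. Among 10904 genes with a mean of at least 5 CPM, the SD of log2(CPM + 1) among the 3 libraries of a replicate had a median of 0.13 and a 95th percentile of 0.33. It was above 0.4 in 389 genes, 108 of them called. DBR1, the lariat debranching enzyme gene, stood at 31.5, 28.9 and 30.5 CPM in vehicle and 1.13, 1.27 and 12.01 CPM with rucaparib (change -3.22, SE 0.71, edgeR adjusted p = 0.0048, and 0.084 without the block), with an SD among libraries of 0.96. Its main transcript was assigned 724 to 1128 reads in each vehicle library, 0 reads in all 6 rucaparib libraries of replicates 1 and 2, and 244, 0 and 901 reads in those of replicate 3. PARP1 showed the same kind of values, with an SD of 1.34. Its main transcript had 1780 to 2837 reads in the vehicle libraries, and with rucaparib 0, 349 and 192 reads in replicate 1, 831, 1191 and 0 in replicate 2 and 2261, 2266 and 2096 in replicate 3. Salmon divides reads that match several transcripts, and transcripts with no gene in the tables used were left out. The part of either in these values was not tested. Other genes named for the size of their change with an SD above 0.4 were ALDH3B2 (0.47), KRT8 (0.42) and CDC42EP2 (0.40).

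Far fewer genes were called at 2 h. At that time 6 genes were higher and 23 lower in the same edgeR fit, each time against its own vehicle samples. The change at 24 h differed from that at 2 h in 3634 genes (18.1%), 1825 of them above 0 and 1809 below. With the length covariate 759 genes differed and without the block 28. The short libraries lay mainly with rucaparib at 24 h and more with vehicle than rucaparib at 2 h in replicates 1 and 2, as given with the mitochondrial genes, and their part in the difference was not tested gene by gene. The 3634 genes included 2810 of the 4831 genes called at 24 h. CDKN1A had changes of 0.47 at 2 h and 2.06 at 24 h, a difference of 1.59 (edgeR adjusted p = 0.0037), and MMP1 of 0.33 and 3.00, a difference of 2.67 (edgeR adjusted p = 7.7e-04). For KIF20A they were 0.21 and -2.0, and 39 of the 54 G2 and mitosis genes differed between the times.

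In several genes neither the change at 2 h nor its difference from that at 24 h passed. CXCL8 and CXCL1 had changes of 1.02 and 1.18 at 2 h (edgeR adjusted p = 0.25 and 0.19), and for the difference between the times the edgeR adjusted p was 0.068 and 0.30. CDC42EP2 was at 0.75 at 2 h (edgeR adjusted p = 0.35, and 0.054 for the difference), TNFAIP3 at 1.02 (edgeR adjusted p = 0.051, and 0.58 for the difference) and KLF6 at 0.81 (edgeR adjusted p = 0.15, and 0.50 for the difference). HBEGF was at 0.92 at 2 h (edgeR adjusted p = 0.11) and 1.93 at 24 h, and that difference passed (edgeR adjusted p = 0.038). HEXIM1 and PPP1R10, which bind P-TEFb and PP1, were further below 0 at 2 h (-0.90 and -1.30) than at 24 h (-0.29 and -0.44). Both were called lower at 2 h (edgeR adjusted p = 3.6e-04 for each), and both differences passed (edgeR adjusted p = 0.011 for each).

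**Figure D5:**
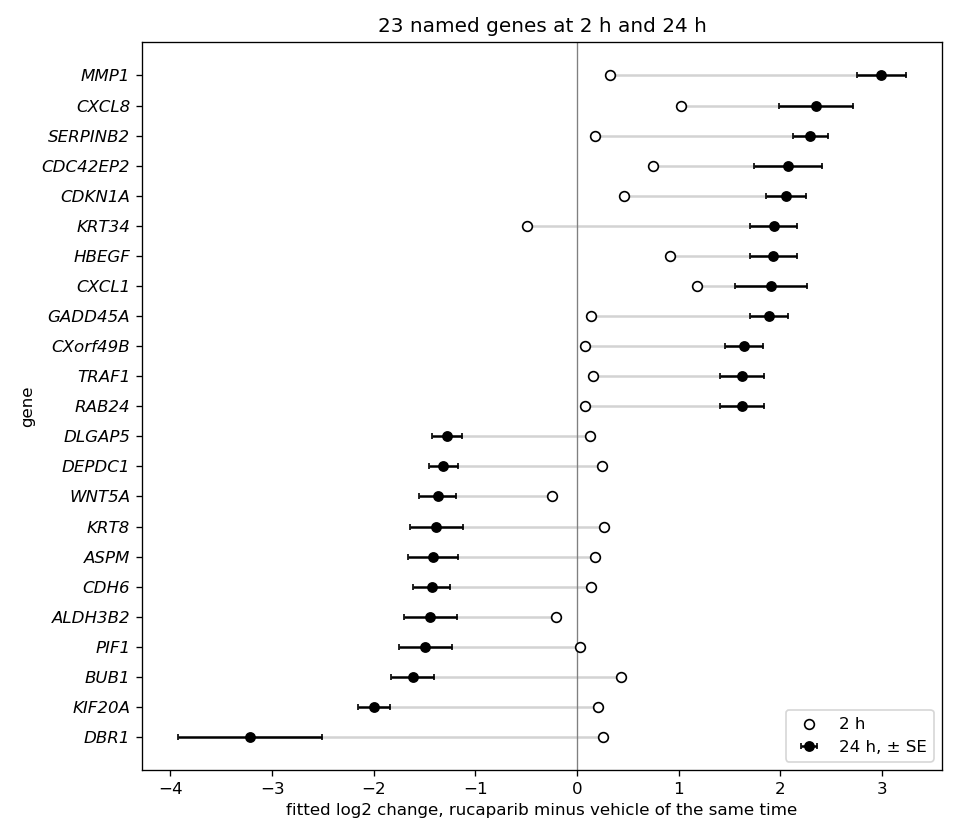
Fitted log2 change between rucaparib and the vehicle samples of the same time, at 2 h (open circles) and 24 h (filled circles ± SE), for the 23 genes of the plot by replicate. Most lie near 0 at 2 h, from -0.49 for KRT34 to 1.18 for CXCL1, and between -3.22 and 3.00 at 24 h.

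How firmly a gene can be named depends on the fit. Of 228 genes named by rule 221 were called, and 5 of them, MMP1, SERPINB2, CDKN1A, HBEGF and SESN2, were called in the same direction under every other setting tried. One of these settings, the length covariate, was part of the rule for genes named for the size of their change. No replicate came from separate animals or donors. The labels do not say how the 3 libraries of a number relate, so p-values measure spread between summed samples of this line only. That spread was estimated over all groups of the series, including the earlier time and the sorted fractions. From the 6 compared samples alone, with the block, 203 of 17966 genes were called higher and 180 lower.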

How the data were processed

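RNA of PEO1 cells was measured in 72 libraries, 18 of which are reported here. Per the labels, the authors trimmed reads with cutadapt 4.7 and quantified transcripts with Salmon against GRCh38 (Salmon's version is not given in the sources used here), and deposited per-transcript estimated counts and TPM. The study's text does not describe these RNA libraries. Of 257369 transcripts, 194437 were matched to genes by GENCODE release 29 and 11562 by GENCODE's HGNC table. The 51370 unmatched transcripts, with 7.55 to 8.86% of reads per library, were left out. Estimated counts were summed by gene and over the 3 libraries of a replicate number, and rounded. Totals of 30812250 to 38899905 reads per library set the precision of low counts.

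edgeR 4.0.16 (quasi-likelihood test, TMM, its default filter, which left 20131 genes, R 4.3.3) was fitted to all 24 summed samples (8 groups of 3), with the replicate number as a block and Benjamini-Hochberg adjustment over all genes. The block was set because the comparison is defined as paired by replicate number, and the labels give only that number. In a check on the same data, same-numbered samples of the 2 treatments deviated together, with correlations of 0.311, 0.173 and 0.321. Over all groups the median for the same number was 0.286 and the lowest -0.0651. For different numbers the median was -0.124. Deviations were taken from the mean of each group of 3, which by itself puts different numbers below 0 where the same number lies above 0. The value for different numbers is therefore not a separate check. Changes per replicate are differences of log2 CPM with a prior count of 2. The deposited TPM were used only on the log2(TPM + 1) scale as an alternative, with limma 3.58.1. The results were also computed with DESeq2 1.42.0, with edgeR scaled by DESeq2 size factors, and with other filters, no block, fewer samples, unsummed libraries, 3 corrections for transcript length and leaving out each replicate number. No 2 libraries were identical, and libraries of 1 replicate differed by at least 6.22 times the chi-square of sampling noise per degree of freedom.

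On simulated data of this comparison, 26.9, 61.2 and 78.8% of genes changed 1.5-, 2- and 4-fold were called (67, 67 and 66 of 20131 genes), with 5 calls among 19931 unchanged genes. The counts were drawn from the fitted means and dispersions, with no shift in transcript length between treatments. They therefore do not give the rate of false calls in the real libraries, where length differed. The members and the 44 lists were chosen with earlier results of these data known. Genes were named by rule: per direction the 12 protein-coding genes of largest change that were called with and without the length covariate, with at least 5 CPM in the higher group and 1 sign in all replicates; up to 4 called members per list and direction; and PARP1, PARP2 and 11 genes that the study names. List genes without a match are not analysed here, and a few genes that the rule names are not reported here. Promoters are from RefSeq.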

Additional observations from a re-analysis of the deposited data

Results flagged for a closer look

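The vehicle libraries of 24 h held 1 total that lay apart from the other 8, at 38009444 reads in replicate 2. Of 20 ends of groups tested in this way, chance would mark about 1 in 20.

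The change with rucaparib at 24 h differed from that at 2 h in 3634 genes (edgeR, block, adjusted p under 0.05), 28 without the block and 0 without replicate 2 (3700 at an unadjusted p under 0.05). On the log2 scale the 24 h change minus the 2 h change was 2.67 for MMP1, 2.12 for SERPINB2, 1.59 for CDKN1A, 2.42 for KRT34, 1.01 for HBEGF, 1.75 for GADD45A, 1.56 for CXorf49B, 1.47 for TRAF1 and 1.55 for RAB24. Among genes that fell it was -3.48 for DBR1, -2.21 for KIF20A, -2.05 for BUB1, -1.53 for PIF1, -1.24 for ALDH3B2, -1.57 for CDH6, -1.60 for ASPM, -1.65 for KRT8, -1.12 for WNT5A, -1.56 for DEPDC1 and -1.40 for DLGAP5. At 24 h, mean transcript length was lower in the 6 rucaparib libraries of replicates 1 and 2 than in any vehicle library, and at 2 h 1, 1 and 3 vehicle libraries of replicates 1, 2 and 3 had at least 2800 bases against 2, 2 and 2 with rucaparib. The part of length in these differences was not tested gene by gene. With length as a covariate 759 genes differed.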

How the results depend on the processing

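Counts of genes higher and lower with rucaparib (2656 and 2175) stayed within 1.5 times with DESeq2 (3060 and 2867), with its size factors in edgeR, with either other filter on low counts and with 9 unsummed libraries per group. They were 442 and 232 without the replicate block, 203 and 180 with the block in the 6 samples alone, 9 and 0 in those 6 without the block (edgeR, with 1649 lower at an unadjusted p under 0.05), 627 and 551 with the length covariate, 1287 and 1294 with an offset for effective length, and 678 and 1287 on the log2(TPM + 1) scale. From libraries of at least 2800 bases they were 1670 and 1708. Of the calls, 2656 of 4831 were higher in the main fit, 65.6% without the block and 34.5% with TPM. Leaving out 1 replicate gave 34 to 2322 higher and 39 to 2339 lower genes, with the smallest counts without replicate 2 (34 and 39) and 1023 and 759 without replicate 1.

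The genes whose change differed between 24 h and 2 h, 3634 in the main fit, became 28 without the block, 6086 with unsummed libraries, 759 with the covariate, 1319 with the offset, 1054 with TPM and 0 to 5050 with 1 replicate left out (80 without replicate 1, and in edgeR 0 without replicate 2, with 3700 at an unadjusted p under 0.05). Of 221 called named genes, 221 were called the same way with DESeq2, 64 without the block, 92 with the covariate and 17 without replicate 2. The genes named for the size of their change had to be called with the covariate, and the others were the most changed called members of lists. These counts therefore do not hold for called genes in general. With the covariate, 547 of all 2656 higher and 489 of all 2175 lower genes kept their call. In 8 the direction turned: with the offset FANCC was at -0.11, FN1 at 0.14, CRIM1 at 0.46, HSF1 at -0.23, ESRP1 at 0.042 and CDK9 at -0.13, and with TPM FANCC was at -0.18, XRCC3 at -0.051, FN1 at 0.041, CRIM1 at 0.39, HSF1 at -0.34, TFE3 at -0.003 and CDK9 at -0.24. Fewer samples are part of leaving out a replicate; otherwise the cause was not tested. The precision of genes under 1 CPM is limited by their few reads.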
